A study of Mus musculus with 10 samples.

Results

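The 9 genes followed here are ones that cells switch on when they receive a BMP signal, measured through mouse germ cell induction in vitro: *Id1*, *Id2*, *Id3*, *Smad6*, *Smad7*, *Msx1*, *Msx2*, *Bambi* and *Bmp4*. They were chosen by name, with no measured value in the rule. These genes and all gene lists used below were, however, chosen with earlier results of these data known. All 9 were found in both UMI tables, as 9 of 27998 genes for the ESC line E14Tg2a and 9 of 32285 genes for the ESC line R1. UMIs are unique molecular identifiers, so a UMI count is a count of captured transcripts. Both lines are male mouse ESC lines.

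The E14Tg2a series held 8 libraries, all wild type. The 2i ESC were grown without serum, with LIF and inhibitors of MEK and GSK3β. The d1, d2 and d3 EpiLC (epiblast-like cells at day 1, 2 and 3) and the EpiSC (epiblast stem cells) were grown with 20 ng/ml Activin A and 12 ng/ml bFGF. The EpiLC medium also held the supplement KSR, which is not listed for EpiSC. EpiSC were passaged and kept in culture for longer than EpiLC. The d2 EB and d4 EB (embryoid bodies at day 2 and 4) were aggregates of d2 EpiLC floating in a medium with 0.5 µg/ml BMP4, SCF, LIF and EGF, and no BMP8a was added. The S+L ESC were grown in 15% FBS and LIF. The remaining pair of libraries were d4 EB of R1 WT cells and of their dCD derivative, grown with the same BMP4 dose. The dCD cells are a clonal line with point mutations in the catalytic domains of MLL3 (gene *Kmt2c*) and MLL4 (gene *Kmt2d*), so both proteins are made without methyltransferase activity. Every condition had 1 library, and no BMP4 was added to the ESC, EpiLC and EpiSC cultures.

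BMP ligands such as BMP4 bring type I and type II receptor kinases together, and the type I receptor then phosphorylates SMAD1, SMAD5 and SMAD9, which enter the nucleus with SMAD4. Direct targets include the *Id* genes, whose products bind bHLH transcription factors and keep them from DNA, the homeobox genes *Msx1* and *Msx2*, and the brakes of the pathway itself. In the mouse embryo BMP4 from the extraembryonic ectoderm induces the germ cell fate in the adjacent epiblast. Extraembryonic mesoderm is also made in a BMP-rich setting.

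*Id1* (ENSMUSG00000042745) spans bases 152736251 to 152737410 of chromosome 2 on the plus strand of GRCm38. *Id2* (ENSMUSG00000020644) lies on chromosome 12 from 25093799 to 25097140 on the minus strand. *Id3* (ENSMUSG00000007872) lies on chromosome 4 from 136143497 to 136145755 on the plus strand. The *Id* genes are therefore spread over separate chromosomes. *Smad6* (ENSMUSG00000036867) lies on chromosome 9 from 63953076 to 64022059, *Msx1* (ENSMUSG00000048450) on chromosome 5 from 37820485 to 37824583, *Msx2* (ENSMUSG00000021469) on chromosome 13 from 53466884 to 53473074 and *Bmp4* (ENSMUSG00000021835) on chromosome 14 from 46383520 to 46390669, all on the minus strand. The remaining 2 are *Smad7* (ENSMUSG00000025880) and *Bambi* (ENSMUSG00000024232). All 9 are annotated as protein coding.

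RefSeq promoters on GRCm38.p6 were at hand for 6 of the 9 genes, *Id2*, *Id3*, *Smad6*, *Msx1*, *Msx2* and *Bmp4*. They were searched over the 250 bases before the start for letters that SMAD proteins are known to bind, on both strands. The GC-rich GGAGCC was present in 5 of the 6, all except *Msx1*, against 26% of all 32851 promoters of that length. GGCGCC was present in 1 of the 6, *Id2*, against 9.59% of all promoters, and CAGACA in 0 of the 6 against 17.1%. No match overlapped another. The windows of *Id3* and *Msx2* overlapped annotated exons over all 250 bases and that of *Id2* over 161, so these counts are not of upstream sequence alone. The sequences below are those of the 3 genes whose window lay clear of annotated exons. They show the letters that *Smad6* and *Bmp4* hold and *Msx1* does not, and the matches, on either strand, are in capitals. A match describes the letters only, and binding was not measured here.
Smad6, chr9:64022060-64022309, minus strand: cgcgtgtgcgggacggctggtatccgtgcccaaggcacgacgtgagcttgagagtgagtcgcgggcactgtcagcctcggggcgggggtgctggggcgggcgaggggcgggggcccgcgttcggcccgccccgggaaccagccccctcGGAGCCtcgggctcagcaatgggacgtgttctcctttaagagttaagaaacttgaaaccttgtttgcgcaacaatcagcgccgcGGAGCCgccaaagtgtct
Bmp4, chr14:46390670-46390919, minus strand: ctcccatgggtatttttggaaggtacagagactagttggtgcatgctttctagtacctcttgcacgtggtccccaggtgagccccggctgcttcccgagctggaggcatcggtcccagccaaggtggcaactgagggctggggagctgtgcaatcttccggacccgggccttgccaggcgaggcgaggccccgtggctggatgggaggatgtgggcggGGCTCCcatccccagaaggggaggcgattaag
Msx1, chr5:37824586-37824835, minus strand: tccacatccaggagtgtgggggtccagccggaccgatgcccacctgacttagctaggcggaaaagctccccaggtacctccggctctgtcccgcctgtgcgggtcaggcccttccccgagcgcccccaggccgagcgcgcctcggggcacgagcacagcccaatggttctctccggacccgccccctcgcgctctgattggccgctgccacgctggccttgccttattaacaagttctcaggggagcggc

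The libraries held 227 to 1699 cells and 8757170 to 22887974 UMIs, with medians of 11751 to 36750 UMIs per cell. Levels are CPM (counts per 1e+06), found by adding up the UMIs that a gene had in all cells of a group and dividing by the total of that group, with exact 95% Poisson intervals. With 1 library a condition there was no replicate check and no test. Intervals cover counting error alone, and neither the spread between cultures nor a batch of library making can be told apart from the condition. Fewer cells with a transcript and fewer transcripts per cell cannot be told apart in a summed level. The E14Tg2a and R1 libraries were made with different versions of the 10x chemistry, so their levels are set side by side without a ratio. In all, 8 cell barcodes were shared between libraries of the same table. *Kmt2c* was at 47.5 CPM in R1 WT and 53.8 CPM in dCD, and *Kmt2d* at 29.4 and 29.1 CPM. Both transcripts are kept by the design of the mutation, so they do not check the genotype.

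All 9 genes were at their highest level of the E14Tg2a series in EB, 8 of them in d2 EB and *Smad6* in d4 EB. *Id1* was at 684 CPM in d2 EB and 377 in d4 EB, at 49.9 in S+L ESC, 39.2 in EpiSC and 7.08 in 2i ESC, and at 3.00, 1.70 and 17.0 in d1, d2 and d3 EpiLC. *Id2* was at 293 CPM in d2 EB and 287 in d4 EB, at 21.2 in S+L ESC, 24.1 in EpiSC and 4.00 in 2i ESC, and at 10.1, 18.5 and 16.8 in d1, d2 and d3 EpiLC. *Id3* was at 945 CPM in d2 EB and 493 in d4 EB, at 25.9 in S+L ESC, 155 in EpiSC and 63.4 in 2i ESC, and at 27.4, 19.2 and 23.1 in d1, d2 and d3 EpiLC. The *Id* genes thus had different orders outside EB: *Id1* was lowest in d2 EpiLC, *Id2* in 2i ESC, and *Id3* in d2 EpiLC with 2i ESC and EpiSC well above. The d2 and d4 EB levels of *Id2* did not differ beyond counting error, nor did neighbours in the order EpiSC, S+L ESC, d2 EpiLC and d3 EpiLC. The *Id1* levels of d1 and d2 EpiLC were equally within counting error, as were neighbours in the *Id3* order d1 EpiLC, S+L ESC and d3 EpiLC.

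Of the inhibitory SMADs, SMAD6 mainly blocks BMP signals while SMAD7 blocks both BMP and TGF-β signals. *Smad6* was at 58.9 CPM in d2 EB and 69.1 in d4 EB, at 3.56 in S+L ESC, 5.41 in EpiSC and 0.914 in 2i ESC, and at 1.0, 2.33 and 2.13 in d1, d2 and d3 EpiLC. *Smad7* was at 146 CPM in d2 EB and 104 in d4 EB, at 70.0 in S+L ESC, 72.3 in EpiSC and 66.9 in 2i ESC, and at 58.3, 56.5 and 55.8 in d1, d2 and d3 EpiLC. *Smad7* was the member that varied least, with transcripts in every culture. BAMBI is a receptor-like protein without a kinase that holds back BMP, Activin and TGF-β receptors. *Bambi* was at 282 CPM in d2 EB and 148 in d4 EB, at 17.8 in S+L ESC, 41.1 in EpiSC and 16.3 in 2i ESC, and at 15.9, 22.9 and 28.2 in d1, d2 and d3 EpiLC. Within counting error lay *Smad6* in S+L ESC, d2 and d3 EpiLC, and in d1 EpiLC and 2i ESC. So did *Smad7* in EpiSC, S+L ESC and 2i ESC, and in the EpiLC, and *Bambi* in S+L ESC, 2i ESC and d1 EpiLC.

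The homeobox genes were near 0 in most cultures without added BMP4. *Msx1* was at 249 CPM in d2 EB and 115 in d4 EB, at 0.396 in S+L ESC and 8.39 in EpiSC, and at 4.64, 2.33 and 1.63 in d1, d2 and d3 EpiLC, with 0 UMIs in 2i ESC, which allows up to 0.343 CPM. *Msx2* was at 156 CPM in d2 EB and 107 in d4 EB, at 0.891 in S+L ESC, 0.627 in EpiSC, 0.343 in 2i ESC and 0.0710 in d3 EpiLC, with 0 UMIs in d1 and d2 EpiLC, which allows up to 0.273 and 0.269 CPM. *Bmp4*, the gene of the ligand itself, was at 76.0 CPM in d2 EB and 22.8 in d4 EB, at 17.6 in S+L ESC, 5.64 in EpiSC and 9.02 in 2i ESC, and at 3.00, 1.43 and 2.49 in d1, d2 and d3 EpiLC. Levels of *Msx2* outside EB, of *Msx1* in d2 and d3 EpiLC and in S+L and 2i ESC, and of *Bmp4* in d1, d2 and d3 EpiLC did not differ from their neighbours in order beyond counting error. Of these 3 genes, *Msx2* separated EB from every other culture by the widest margin, while *Bmp4* in S+L ESC came nearest to its d4 EB level.

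**Figure D1:**
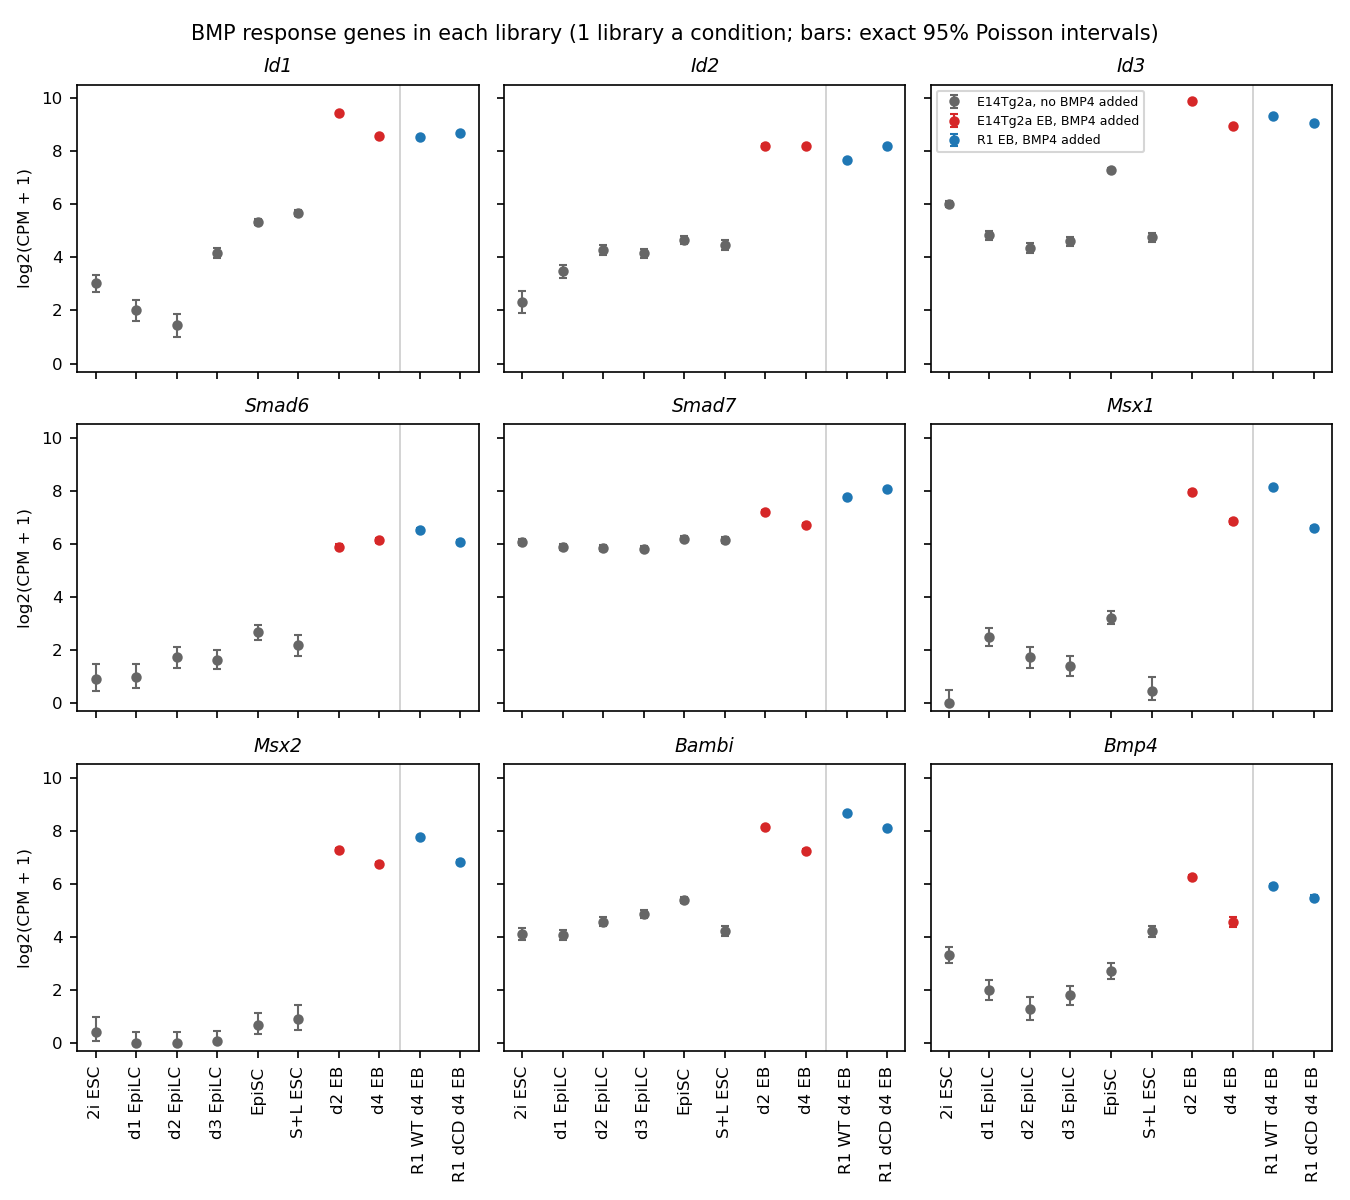
Level of each gene as log2(CPM + 1) in the 8 E14Tg2a libraries (grey without added BMP4, red for EB) and the 2 R1 libraries (blue), 1 point a library with its exact 95% Poisson interval. Among the 8 E14Tg2a libraries all 9 genes sit highest in a red EB library. Among the same libraries *Smad7* has the narrowest range on this scale, from 55.8 CPM in d3 EpiLC to 146 CPM in d2 EB. The blue R1 points are left out of this order, and some lie above the red ones.

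The step from d2 EpiLC to d2 EB shows what the genes did within 2 days of aggregation with BMP4. All 9 genes were higher in d2 EB by 2-fold or more, and 0 were lower. Of the 13744 genes with at least 10 UMIs over both groups, 13.1% were 2-fold higher and 9.79% lower. Calls at 2-fold use CPM with a pseudocount of 1, printed folds and intervals use CPM as it is, and the median log2 ratio of the 9 genes was 4.98 against 0.06 over all genes tested. *Id1* was 401-fold higher (95% interval 257 to 667), on 19 UMIs in d2 EpiLC against 10017 in d2 EB. *Msx1* was 107-fold higher (72.8 to 164) and *Msx2* at least 579-fold higher than the limit of 3 counts set by its 0 UMIs in d2 EpiLC. These 3 genes had few or no transcripts at the start and were detected in 87.2% to 99.3% of d2 EB cells. *Bmp4* was 53.0-fold (32.5 to 93.0), *Id3* 49.3-fold (43.0 to 56.7), *Smad6* 25.3-fold (17.1 to 38.9), *Id2* 15.9-fold (13.8 to 18.3) and *Bambi* 12.3-fold (10.9 to 14.05) higher. *Smad7* was the exception in size, 2.59-fold higher (2.36 to 2.83). The medium, the aggregation, the time and BMP4 changed together, so their parts cannot be told apart.

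The same comparison over the cells gave a like picture. *Id3* had a UMI in 537 of 537 d2 EB cells, with a median of 20 UMIs per cell, and in 26.6% of d2 EpiLC. The d2 EpiLC had more UMIs per cell in all (medians of 35956 against 24510). *Id1* had a UMI in 99.3% and 4.84% of cells, with medians of 16 and 0 UMIs. *Msx2* had one in 90.1% of d2 EB cells and 0 of 289 d2 EpiLC. With 283 of the latter thinned to 15374 UMIs, a count of 0 allows a UMI in up to 1.06% of cells. *Smad6* and *Bmp4* were detected in fewer d2 EB cells, 67.2% (63.1% to 71.2%) and 64.1% (59.8% to 68.1%), and in 8.65% and 5.19% of d2 EpiLC. Thinning all cells to 15374 UMIs gave 54.5% and 52.8% for them in d2 EB. *Smad7* was found in 93.3% of d2 EB cells and 80.6% of d2 EpiLC.

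Of a fixed list of 58 other genes of the BMP pathway, 43 had enough UMIs in this comparison, and 22 were at least 2-fold higher and 0 lower in d2 EB, against the 13.1% and 9.79% of all genes. Other transcription factors that BMP induces led the list, with 10 of 10 higher and a median log2 ratio of 4.07. *Hand1*, a bHLH factor of extraembryonic mesoderm and heart, was at 770 CPM against 0 UMIs (at least 2864-fold higher), and *Gata2*, a factor of blood and trophoblast, at 43.8 CPM against 0 UMIs (at least 163-fold). *Gata3*, *Tbx20*, *Prrx2* and *Hey1* were at 42.6, 22.0, 115 and 28.9 CPM in d2 EB, against 0.0896, 0, 2.6 and 1.43 in d2 EpiLC. Among the upstream parts fewer were called: 2 of 4 ligands, 3 of 9 receptors, 3 of 7 signal SMADs and cofactors, 4 of 7 secreted antagonists and 0 of 6 intracellular inhibitors were 2-fold higher.

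From d2 EB to d4 EB, 2 of the 9 genes were lower by 2-fold or more, against 3.54% of 13813 genes tested, and 0 were higher, against 9.73%. *Bmp4* was 3.33-fold lower (2.88 to 3.87) and *Msx1* 2.17-fold lower (2.03 to 2.33). *Id3*, *Bambi* and *Id1* were 1.92-fold, 1.9-fold and 1.81-fold lower, just inside the 2-fold limit. With ratios centred on the median gene, which was 0.09 higher on the log2 scale in d4 EB, 4 genes were past it. *Id2* and *Smad6* stood apart from the other *Id* genes and inhibitors: *Id2* was 1.02-fold lower (0.974 to 1.07) and *Smad6* 1.17-fold higher (1.06 to 1.30). *Smad7* and *Msx2* were 1.40-fold and 1.46-fold lower.

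Ligands and antagonists of the list differed in both directions over these 2 days, with 9 of 46 pathway genes higher and 5 lower, against 9.73% and 3.54% of all genes. *Chrdl1*, a secreted BMP antagonist, was at 5.94 CPM in d4 EB and had 0 UMIs in d2 EB (at least 29.0-fold higher). The ligand *Bmp7* was at 19.7 CPM in d2 EB and 2.92 in d4 EB, *Bmp2* at 3.55 and 11.7, and *Bmp5* at 0.205 and 3.12. *Hand1* was at 770 and 218 CPM, and the antagonist *Fst* at 10.9 and 3.02. The lower *Bmp4* thus stood beside lower *Bmp7* and higher *Bmp2* and *Bmp5*.

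The authors listed 91 of the 537 d2 EB cells and 44 of the 368 d4 EB cells as PGCLC, the germ cell-like cells. The authors picked the clusters behind this list by PGC genes, so PGC markers are not an independent check of it. The 6 PGC genes used here summed to 455 CPM in the d2 listed PGCLC against 43.2 in the other d2 EB cells. At d4 they summed to 407 against 51.7 CPM. Naive pluripotency genes followed the same split, at 651 against 264 CPM at d2 and 1244 against 321 at d4. Markers of extraembryonic mesoderm went the other way, at 10.9 against 165 CPM at d2 and 22.8 against 660 at d4, with 5 of 8 markers above 0 in the d4 listed PGCLC. The contribution of these cell types to the values of the 9 genes was not tested.

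At d2 the listed PGCLC had all 9 genes at a lower level than the other EB cells, and 4 of them lower by 2-fold or more, against 10.3% of 12539 genes tested. Of the 9, 0 were 2-fold higher, against 6.06%. *Bambi* was at 72.6 CPM against 334 (4.6-fold lower, 4.01 to 5.31), *Smad6* at 17.0 against 69.4 (4.07-fold, 3.06 to 5.53), *Bmp4* at 22.5 against 89.4 (3.97-fold, 3.10 to 5.17) and *Msx2* at 73.6 against 176 (2.39-fold, 2.08 to 2.77). These 4 were an inhibitory SMAD, the receptor-like inhibitor, the ligand and a homeobox gene. *Id1* was at 422 against 749 CPM, *Id2* at 193 against 318 and *Id3* at 543 against 1046. *Msx1* was at 141 against 276 CPM and *Smad7*, also an inhibitor, was the least apart, at 112 against 155. The median gene was itself 0.13 lower (log2) in the listed PGCLC, and relative to it the log2 ratios ran from −2.06 for *Bambi* to −0.33 for *Smad7*. *Msx1* lay just inside the 2-fold limit, at 1.96-fold lower, and *Msx2* just outside.

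The d2 listed PGCLC were nevertheless far from d2 EpiLC. In that comparison 8 members passed 2-fold in the direction of PGCLC, against 9.13% of 12529 genes tested, and 0 in the other direction, against 11.3%. *Id1* was 248-fold (158 to 413), *Msx1* 60.4-fold (40.6 to 93.6), *Id3* 28.3-fold (24.5 to 32.8) and *Msx2* at least 274-fold higher. *Bmp4* was 15.7-fold, *Id2* 10.4-fold, *Smad6* 7.31-fold and *Bambi* 3.18-fold higher, and *Smad7*, at 1.98-fold (1.73 to 2.27), was just under the limit. The part of free RNA from the other EB cells in these levels was not tested.

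At d4 the listed PGCLC had 8 of the 9 genes lower than the other EB cells by 2-fold or more and 0 higher (8.64% of genes), but 31.3% of 12378 genes tested were 2-fold lower there too, and the median gene was 0.48 lower (log2). *Msx1* had 3 UMIs in the 44 listed PGCLC, 2.84 CPM against 128 (45.2-fold lower, 15.4 to 219), a ratio that rests on those 3 UMIs. *Smad6* was at 10.4 against 76.4 CPM (7.32-fold, 4.07 to 14.7), *Bambi* at 24.7 against 164 (6.64-fold, 4.51 to 10.2) and *Bmp4* at 4.74 against 25.03 (5.28-fold, 2.23 to 16.4). *Id1* was at 169 against 403 CPM, *Id2* at 81.5 against 312, *Id3* at 213 against 528 and *Msx2* at 37.0 against 115. *Smad7* alone was not lower, at 120 against 102 CPM (1.18-fold, 0.972 to 1.42). Relative to the median gene *Id1* and *Id3* were at −0.77 and −0.82, within the 2-fold limit, while *Msx1* was at −4.59, *Smad6* at −2.28, *Bambi* at −2.20 and *Smad7* at 0.72.

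**Figure D2:**
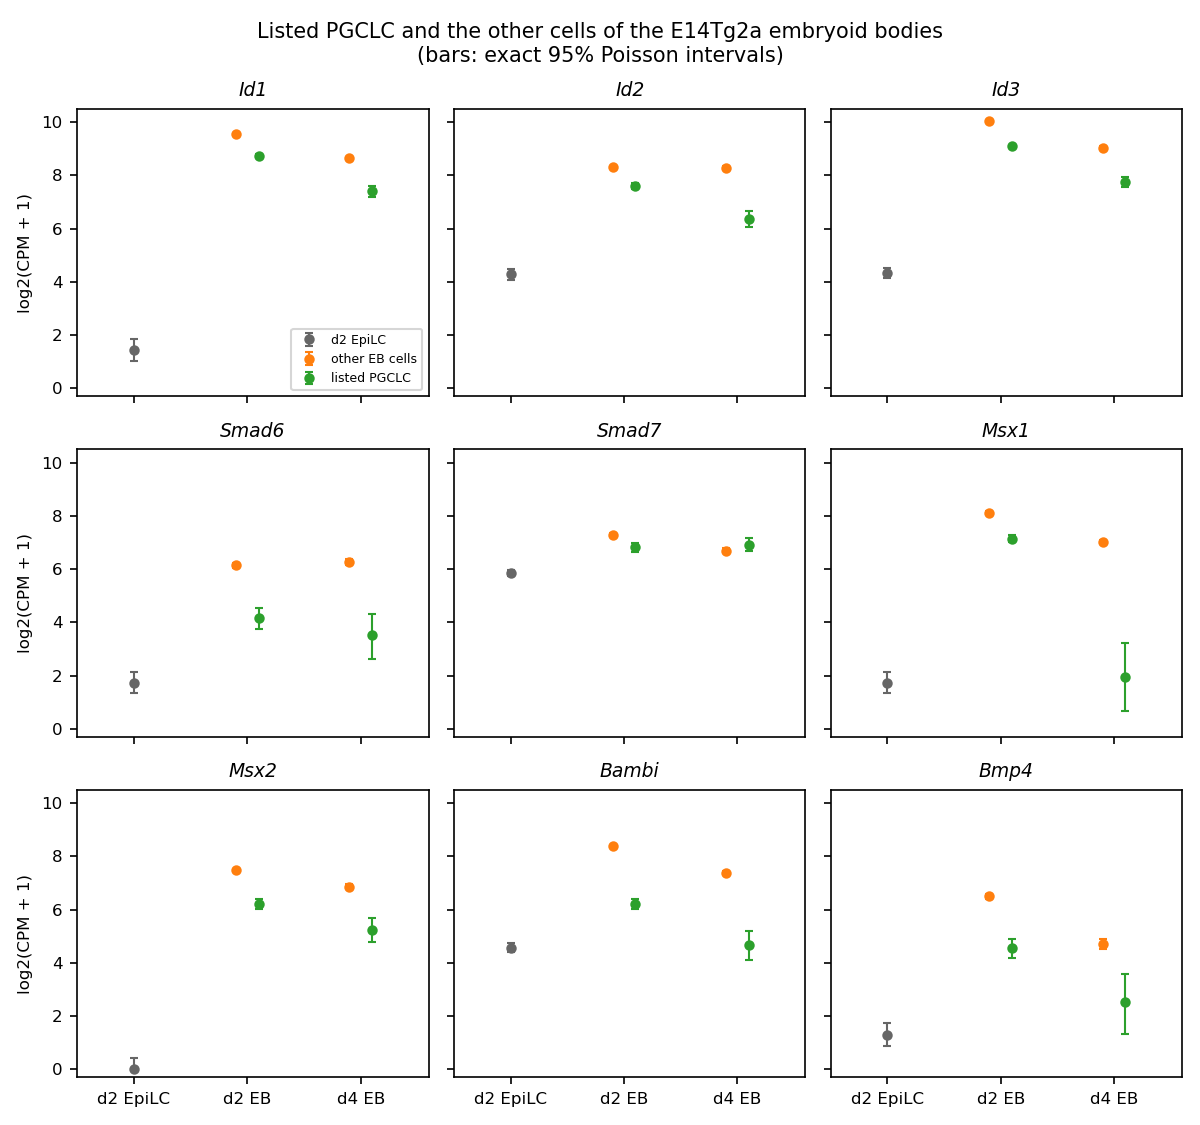
Level of each gene as log2(CPM + 1) in d2 EpiLC (grey), in the listed PGCLC (green) and in the other cells (orange) of d2 EB and d4 EB, with exact 95% Poisson intervals. The green points lie under the orange ones for all 9 genes at d2 and for 8 of 9 at d4, and *Msx1* is at 141 CPM in the listed PGCLC of d2 and 2.84 CPM in those of d4.

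Between d2 and d4 the level in listed PGCLC was lower by 2-fold or more for 6 of the 9 genes, against 12.5% of 10258 genes tested, and higher for 0, against 5.98%. *Msx1* was 49.5-fold lower (16.8 to 241) on the same 3 UMIs, *Bmp4* 4.75-fold, *Bambi* 2.95-fold, *Id3* 2.54-fold, *Id1* 2.50-fold and *Id2* 2.36-fold. *Smad6*, *Msx2* and *Smad7* differed less: *Smad6* was 1.63-fold lower (0.840 to 3.48), *Msx2* 1.99-fold lower (1.41 to 2.88) and *Smad7* 1.08-fold higher (0.870 to 1.33). The median gene was 0.20 lower (log2) at d4, and relative to it the same 6 genes stayed past 2-fold. In the other EB cells over the same time 3 of the 9 were 2-fold lower, against 4.17% of 13372 genes, and 0 higher, against 10.6%, namely *Bmp4* (3.57-fold), *Msx1* (2.15-fold) and *Bambi* (2.04-fold). The median gene was 0.11 higher there, and relative to it *Id3* (−1.09) and *Id1* (−1.003) were past 2-fold too. *Id2*, 1.02-fold lower in the other EB cells (0.970 to 1.07), differed from its 2.36-fold (1.88 to 3.00) in listed PGCLC with intervals apart. The listed PGCLC of d2 and d4 are different cells of different libraries, so a change within a cell was not measured.

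The count of cells with *Msx1* gave the same order as its level. It had a UMI in 64 of 91 d2 listed PGCLC (70.3%, 59.8% to 79.5%) and in 3 of 44 d4 listed PGCLC (6.82%, 1.43% to 18.7%). In the other EB cells it had one in 90.6% at d2 and 72.8% (67.6% to 77.6%) at d4. At 15374 UMIs per cell the shares in listed PGCLC were 57.1% of 91 cells and 5.26% of 38 cells. The d4 value is no higher than in extraembryonic ectoderm-like cells of the same library, where 5 of 37 cells (13.5%, 4.54% to 28.8%) had an *Msx1* UMI at a median of 39004 UMIs per cell against 24558. The source of these few UMIs was not tested, and the *Msx1* ratios of the d4 listed PGCLC are to be taken with that limit.

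Of the rest of the pathway list, 17 of 41 genes were 2-fold lower in listed PGCLC and 1 higher at d2, where 10.3% and 6.06% of all genes were. At d4 23 of 44 were lower and 2 higher, against 31.3% and 8.64% of all genes. *Hand1* was at 86.3 against 942 CPM at d2 and at 1.896 against 245 at d4. *Prrx2*, a homeobox gene of mesenchyme, was at 15.3 against 139 and at 9.48 against 350 CPM. *Tbx20*, a T-box factor of cardiac and extraembryonic mesoderm, was at 4.77 against 26.4 and at 2.84 against 69.5. *Bmp2* had 0 UMIs in listed PGCLC on both days and was at least 4.34-fold and at least 4.61-fold lower than in the other cells. At d4 *Gata3* was at 4.74 against 37.1 CPM and *Chrdl1* had 0 UMIs in listed PGCLC.

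EpiSC and d2 EpiLC share Activin A and bFGF, and no BMP4 was added to either. They differ in germline competence, in the supplement KSR (listed for EpiLC only) and in time and passaging in culture. The parts of these differences were not tested. In EpiSC 4 of the 8 members with enough UMIs were higher by 2-fold or more, against 8.47% of 13380 genes tested, and 0 were lower, against 6.13%. *Id1* was 23.0-fold higher (14.6 to 38.5), *Id3* 8.08-fold (7.01 to 9.35), *Bmp4* 3.93-fold (2.27 to 7.25) and *Msx1* 3.60-fold (2.33 to 5.76). *Bmp4* and *Msx1* rest on 16 and 26 UMIs in d2 EpiLC, and with a pseudocount of 5 CPM the count was 2. *Bmp4* had a UMI in 6.43% of EpiSC (4.17% to 9.42%) and 5.19% of d2 EpiLC, and *Msx1* in 9.12% (6.4% to 12.5%) and 7.27%, so the shares of cells differed less than the levels. *Smad6* was 2.32-fold (1.46 to 3.80), *Bambi* 1.80-fold, *Id2* 1.30-fold and *Smad7* 1.28-fold higher, and *Msx2* had 8 and 0 UMIs. *Id1* was already 9.96-fold higher (6.24 to 16.8) in d3 than in d2 EpiLC, the 1 member past 2-fold there, against 3.44% of 13240 genes higher and 3.1% lower.

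In EpiSC 10 of 39 pathway genes were higher than in d2 EpiLC and 1 was lower, against 8.47% and 6.13% of all genes. *Cer1*, an antagonist secreted by anterior endoderm, was at 49.4 CPM against 0 UMIs (at least 184-fold higher), and *Chrd*, the antagonist chordin, at 9.56 against 0.986 CPM. The ligands *Bmp7* and *Bmp2* were at 20.7 against 1.52 CPM and at 7.21 CPM against 0 UMIs. *Hey1* was at 9.17 against 1.43 CPM and *Fstl1* at 25.7 against 7.35. By role, 2 of 5 ligands and 4 of 9 secreted antagonists were 2-fold higher in EpiSC.

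From 2i ESC to d2 EpiLC the members split: *Id2* (4.62-fold) and *Msx1* (at least 6.80-fold) were 2-fold higher, against 16% of 12821 genes tested, and *Bmp4* (6.29-fold), *Id1* (4.16-fold) and *Id3* (3.30-fold) were 2-fold lower, against 6.49%. The median gene was 0.24 higher (log2) in d2 EpiLC, and relative to it these 5 stayed past 2-fold. At d1, against 12.1% of 12479 genes higher and 6.54% lower, *Id2* (2.53-fold) and *Msx1* (at least 13.5-fold) were higher and *Bmp4* (3.01-fold), *Id1* (2.36-fold) and *Id3* (2.32-fold) lower. S+L ESC and 2i ESC also differed by gene, with 3 of 8 members higher in S+L ESC by 2-fold or more, against 9.73% of 12600 genes tested, and 1 lower, against 2.41%. *Id1* was 7.05-fold (5.40 to 9.33), *Id2* 5.30-fold (3.69 to 7.81) and *Smad6* 3.90-fold (1.78 to 9.71) higher. *Id3* was 2.44-fold lower (2.11 to 2.84), so the *Id* genes went in opposite directions. *Smad7* was 1.05-fold (0.936 to 1.17) and *Bambi* 1.09-fold (0.871 to 1.37) higher, both within counting error. Of the pathway list 5 of 33 were higher and 3 lower, against the same 9.73% and 2.41%. *Skil*, a repressor that SMADs recruit, was at 38.3 against 7.65 CPM, *Prrx2* at 10.3 against 0.571 and *Zfp423*, a SMAD cofactor, at 5.34 against 1.03. *Fst* was at 0.594 against 11.3 CPM, *Id4* at 1.39 against 4.57 and *Smurf2*, a ubiquitin ligase of SMADs, at 8.71 against 3.31.

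Clusters of EB cells were made without the 9 genes and without the pathway list, and named from marker lists. In d2 EB a cluster of 380 cells was extraembryonic mesoderm-like, led by *Hoxc8* and *Pitx1*. Of its detected extraembryonic mesoderm markers 6 of 7 were 2-fold higher (median fold 5.32). So were 2 of 4 endothelium (median fold 3.96) and 2 of 6 primitive streak or nascent mesoderm markers (1.53). The last list summed to 331 CPM and the extraembryonic mesoderm list to 145, so the name is a loose one. A cluster of 98 cells was PGC-like and held 86 of the 91 listed PGCLC, with naive pluripotency genes also high. A cluster of 59 cells was extraembryonic ectoderm-like. Differences between clusters are descriptions, since the clusters come from the same cells.

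Each of the d2 clusters had its own profile of the 9 genes. The extraembryonic mesoderm-like cluster had the highest *Id1* (772 CPM), *Id2* (343), *Smad7* (162), *Msx1* (331), *Bambi* (392) and *Bmp4* (109). The extraembryonic ectoderm-like cluster had the highest *Id3* (1628 CPM) and *Msx2* (266), beside *Smad6* at 71.6 CPM against 69.3 in the mesoderm-like cluster, with overlapping intervals. It had the lowest *Msx1* (52.2 CPM, 43.3 to 62.3) and *Bmp4* (6.90 CPM, 3.94 to 11.2). The homeobox pair thus differed in order between the extraembryonic clusters, with *Msx1* higher in the mesoderm-like and *Msx2* higher in the ectoderm-like cells. The *Bmp4* transcripts sat mainly in the mesoderm-like cells with few in the ectoderm-like cells. The PGC-like cluster was lowest for 7 of the 9 genes, with *Id1* at 442 CPM, *Id3* at 539, *Smad6* at 16.7 and *Bambi* at 77.7. For *Id2* (204 CPM, 188 to 221) and *Smad7* (115, 103 to 128) it overlapped the ectoderm-like cluster (209, 190 to 228, and 120, 107 to 135) within counting error.

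In d4 EB 4 clusters were taken. A cluster of 241 cells was extraembryonic mesoderm-like, another of 41 cells endothelium-like, led by *Cldn5* and *Emcn*, and another of 37 cells extraembryonic ectoderm-like. The cluster of 49 cells that held all 44 listed PGCLC was left unnamed, because globin genes led it. Its 6 PGC markers had a median fold of 8.46 over the other cells and its 7 naive pluripotency markers 12.6. *Msx1* was at 190 CPM in the mesoderm-like, 78.7 in the endothelium-like, 6.70 in the unnamed and 3.94 in the ectoderm-like cluster. *Msx2* was again highest in the ectoderm-like cluster, at 171 CPM, and was at 121 in the mesoderm-like, 39.3 in the endothelium-like and 36.0 in the unnamed cluster. The split between *Msx1* and *Msx2* was therefore present on both days. *Smad6* was at 106 CPM in the mesoderm-like cluster and at 40.0, 28.1 and 13.4 in the endothelium-like, ectoderm-like and unnamed ones. *Id2* was at 448 CPM in the mesoderm-like cluster and at 142, 86.6 and 93.0 in the same others. *Smad7* had its lowest level in the endothelium-like cluster, 64.7 CPM (52.8 to 78.5), and its highest in the unnamed one, 122 CPM (103 to 144). The unnamed cluster was lowest for 5 of the 9 genes.

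**Figure D3:**
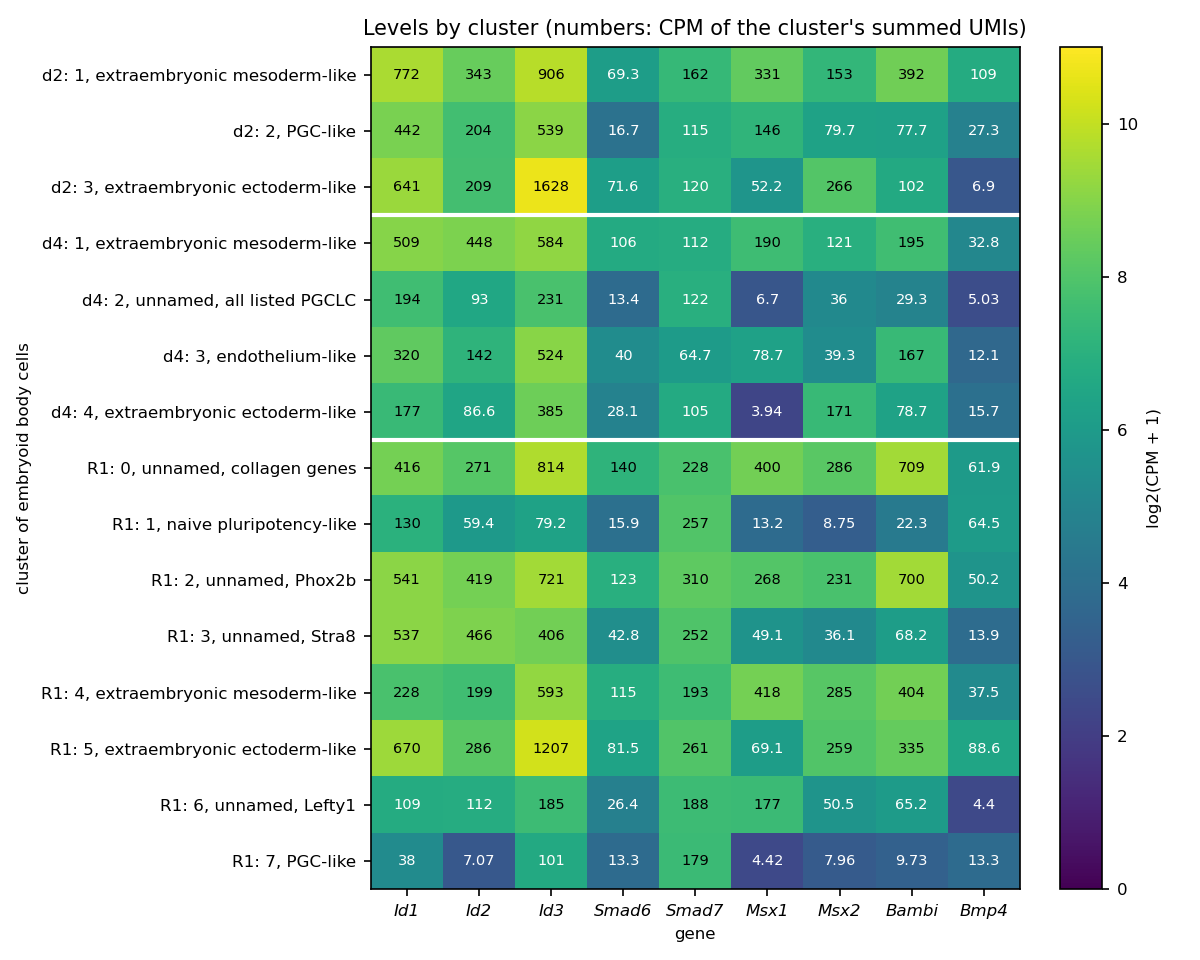
Levels of the 9 genes (columns) in clusters of d2 EB, d4 EB and R1 d4 EB cells (rows), with the colour as log2(CPM + 1) and the CPM written in each box; R1 clusters of under 50 cells are left out. *Msx1* and *Msx2* part in the extraembryonic ectoderm-like rows (52.2 and 266 CPM at d2, 3.94 and 171 at d4).

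The R1 libraries were clustered together, and 11 clusters were found. Cluster 7, PGC-like and led by *Dppa3* and *Nanos3* among others, held 69 WT and 2 dCD cells. In cluster 7 6 of 6 PGC markers were 2-fold higher (median fold 5.91), but 5 of 7 naive pluripotency markers were too (median fold 2.88). Its WT cells had *Id1* at 39.1 CPM, *Id2* at 7.28, *Id3* at 100.04, *Msx1* at 4.55, *Msx2* at 8.18, *Bambi* at 10.0 and *Smad7* at 179. It was the lowest of the 11 for 6 of the 9 genes, while *Smad7* there was close to its level in the extraembryonic mesoderm-like cluster 4 (193 CPM, 181 to 206). Cluster 6, led by *Lefty1* and left unnamed because 5 of 6 PGC and 4 of 8 primitive streak markers were 2-fold higher in it, held 97 WT and 3 dCD cells. It had *Msx1* at 177 CPM and *Id2* at 112, above cluster 7, but the lowest *Bmp4* of all (4.40 CPM, 1.61 to 9.57). Cluster 1 was named naive pluripotency-like, with 6 of 7 naive markers 2-fold higher (median fold 8.80), but 4 of 6 PGC markers were too (median fold 3.03). It combined low *Id3* (79.2 CPM), *Msx1* (13.2), *Msx2* (8.75) and *Bambi* (22.3) with *Bmp4* at 64.5 and *Smad7* at 257 CPM. *Bmp4* thus did not follow the other members there. The extraembryonic ectoderm-like cluster 5 again paired high *Id3* (1207 CPM) and *Msx2* (259) with low *Msx1* (69.1), but here *Bmp4* was at 88.6 CPM, the highest of the 11. High *Msx2* was not particular to cluster 5. In cluster 0, led by collagen genes, *Msx2* was at 297 CPM in WT and 230 in dCD cells. At a Seurat resolution of 0.5 the cluster with the highest PGC marker level held 100 cells and was lowest for 1 gene.

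Across single cells the 9 genes varied together weakly. Over 519 d2 EB cells thinned to the same depth, Pearson r of the 36 pairs ran from −0.02 to 0.44 with a median of 0.17, and within clusters from −0.07 to 0.41. The highest pair was *Id1* with *Id3* in d2 EB (0.44) and d4 EB (0.57, 331 cells). The pairs share cells and library, and no test was made. In R1 WT the pair highest within clusters was again *Id1* with *Id3*, at 0.19 over 1366 cells. In dCD *Msx2* with *Bambi* reached 0.64 over 1529 cells and 0.29 within clusters, so much of that value lay between clusters.

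Across 10 E14Tg2a groups (6 cultures, and listed PGCLC and other cells of both EB) the pairs ran together more closely, from 0.70 to 0.97 with a median of 0.87. These groups share libraries and the contrast of EB with the other cultures. The genes most like each member over these groups, of 12271 genes with at least 100 UMIs, were mostly not other members. They were *Grcc10*, *Mxd1* and *Ube2h* for *Id1* (0.97, 0.96 and 0.95), *Brd3*, *Efna1* and *Smad6* for *Id2* (0.97, 0.97 and 0.97) and *Tor1aip2*, *Galnt1* and *Rnf216* for *Id3* (0.96, 0.96 and 0.95). For the inhibitors they were *Efnb3*, *Pmp22* and *Dlx3* for *Smad6* (0.98, 0.98 and 0.98), *B4galt5*, *Msx2* and *Pink1* for *Smad7* (0.96, 0.95 and 0.94) and *Crb2*, *Hoxa5* and *Rgs3* for *Bambi* (0.99, 0.98 and 0.97). *Smad6* and *Msx2* among these are members, and *Dlx3* is of the pathway list. For *Msx1* they were *Wnt5a*, *Peg3* and *Antxr2* (0.98, 0.98 and 0.97), for *Msx2* *0610040B10Rik*, *Gata2* and *Mxd1* (0.98, 0.98 and 0.98), and for *Bmp4* *Stard8*, *Hotairm1* and *Gm15222* (0.93, 0.93 and 0.92). *Bmp4* had the weakest match of the 9.

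The R1 libraries compare dCD with WT d4 EB. *Id1* was at 364 CPM in WT and 406 in dCD, *Id2* at 201 and 291, and *Id3* at 638 and 530. *Smad6* was at 91.9 and 67.0 CPM, *Smad7* at 216 and 268, and *Bambi* at 406 and 273. *Msx1* was at 279 and 96.0 CPM, *Msx2* at 217 and 113, and *Bmp4* at 60.0 and 43.6. The members differed in both directions between the genotypes. *Msx1* was the 1 gene of 9 lower in dCD by 2-fold or more (2.91-fold, 2.77 to 3.05), against 3.68% of 16272 genes tested, and 0 were higher, against 6.31%. *Msx2* was 1.92-fold lower (1.83 to 2.02), *Bambi* 1.49-fold, *Smad6* and *Bmp4* 1.37-fold and *Id3* 1.20-fold. *Id2* was 1.45-fold (1.39 to 1.505), *Smad7* 1.24-fold and *Id1* 1.11-fold higher.

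The share of cells with a UMI was lower in dCD for *Msx1* and *Bambi* as well. *Msx1* had one in 72.3% (69.9% to 74.6%) of WT and 34.1% (31.9% to 36.4%) of dCD cells, and *Bambi* in 82.6% and 53.5%. At 6831 UMIs per cell the *Msx1* shares were 64.5% and 28.3% and the *Bambi* shares 74.7% and 47.6%. In the naive pluripotency-like dCD cells of cluster 1, 11 of 462 (2.38%, 1.19% to 4.22%) had an *Msx1* UMI at a median of 14206.5 UMIs per cell, against medians of 13187.5 and 11751 in all WT and dCD cells. *Id1*, in contrast, had a UMI in 73.6% of WT and 70.8% of dCD cells at 6831 UMIs.

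The cells of the 2 libraries were of different kinds, and those differences moved with the values. Markers of extraembryonic mesoderm summed to 1083 CPM in WT and 200.2 in dCD, of naive pluripotency to 530 and 766, and of extraembryonic ectoderm to 168 and 314. The extraembryonic mesoderm-like cluster 4 held 370 WT and 0 dCD cells. The collagen-led cluster 0 held 534 and 106, the naive pluripotency-like cluster 1 held 116 and 462, and clusters 2 and 3 held 24 and 464 and 6 and 454. Their part in the library ratios was not tested, and ratios are given within the 3 clusters that had at least 50 cells of each genotype.

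In cluster 0, where *Bambi* was at 710 CPM in WT and 705 in dCD, 0 of the 9 genes differed 2-fold, where 5.05% of 12520 genes were higher in dCD and 5.2% lower. *Msx1* was at 423 CPM in WT and 278 in dCD (1.52-fold lower, 1.36 to 1.70), and *Id3* at 763 and 1084 (1.42-fold higher, 1.34 to 1.51). In the extraembryonic ectoderm-like cluster 5 0 of the 9 differed 2-fold either, where 8.47% of 11990 genes were higher and 3.19% lower. *Bmp4* was nearest, at 116 and 58.8 CPM (1.98-fold lower, 1.65 to 2.38), while *Msx1* was at 63.9 and 74.7 and *Msx2* at 252 and 267. The ratios of *Msx1* (1.17-fold, 0.965 to 1.42) and *Msx2* (1.06-fold, 0.962 to 1.17) in cluster 5 were within counting error of 1.

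In the naive pluripotency-like cluster 1, 4 of the 9 genes were lower in dCD by 2-fold or more, against 3.07% of 12739 genes tested, and 1 was higher, against 8.42%. *Msx1* was at 53.5 CPM in WT and 2.49 in dCD (21.5-fold lower, 12.9 to 37.7), *Bambi* at 49.4 and 15.1 (3.27-fold, 2.46 to 4.35), *Msx2* at 19.2 and 5.95 (3.23-fold, 2.02 to 5.13) and *Id3* at 132 and 65.1 (2.03-fold, 1.73 to 2.37). *Id2* was at 30.7 and 67.0 CPM (2.19-fold higher, 1.67 to 2.92). *Smad7* was at 257 CPM in both, and *Bmp4* at 92.0 and 57.2. The genes lower in dCD here had levels in WT far under those of clusters 0 and 4, and 18 of 116 WT cells had an *Msx1* UMI.

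**Figure D4:**
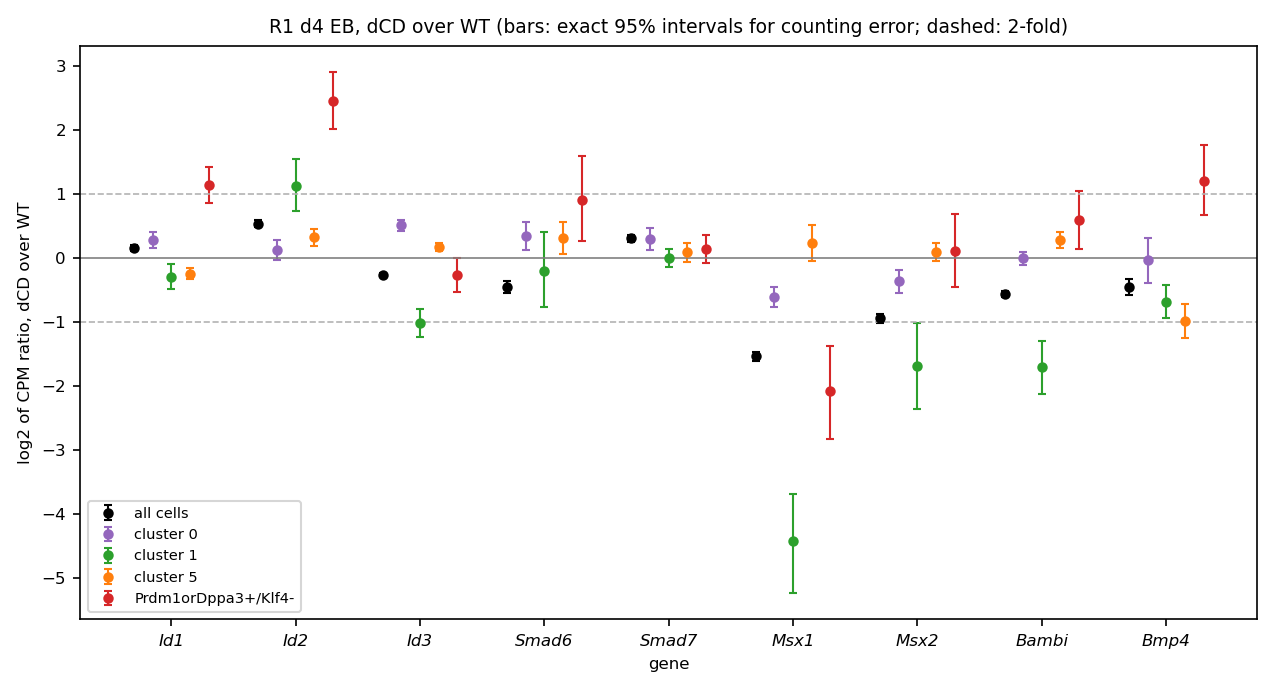
Log2 of the CPM ratio of dCD over WT R1 d4 EB (vertical axis, no pseudocount) for each gene over all cells, in clusters 0, 1 and 5 and in *Prdm1orDppa3*+/*Klf4*- cells, with exact 95% intervals for counting error and dashed lines at 2-fold. *Msx1* ranges from 21.5-fold lower in cluster 1 to 1.17-fold higher in cluster 5, while *Smad7* lies between 0.997-fold and 1.24-fold in all 5 comparisons.

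*Prdm1orDppa3*+/*Klf4*- cells are those with *Prdm1* or *Dppa3* above a threshold and *Klf4* below one. The thresholds were on those 3 genes and on none of the 9 members, and cells with few *Klf4* UMIs could pass. There were 89 such WT cells and 118 such dCD cells. PGC markers summed to 763 and 481 CPM in them and extraembryonic ectoderm markers to 208 and 739. In WT these cells had 8 of the 9 genes lower than the remaining WT cells by 2-fold or more, against 24.1% of 14297 genes tested (7.99% higher), from *Bambi* (10.0-fold, 7.82 to 13.0) to *Bmp4* (2.37-fold, 1.72 to 3.34), and *Smad7* was 1.08-fold lower (0.963 to 1.22). The median gene was 0.29 lower (log2), and relative to it *Bmp4*, at −0.92, was within 2-fold. In dCD 4 of the 9 were 2-fold lower than in the remaining cells, against 9.45% of 15179 genes (2.42% higher), namely *Msx1*, *Bambi*, *Id3* and *Msx2*. *Id1* lay at the limit, at 212 against 423 CPM, with the median gene 0.12 lower.

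Between the genotypes 3 of the 9 genes were higher in the dCD cells by 2-fold or more, against 12.6% of 10845 genes tested, and 1 was lower, against 3.49%. *Id2* was at 33.2 CPM in WT and 181 in dCD (5.45-fold higher, 4.03 to 7.51), *Bmp4* at 26.5 and 60.9 (2.30-fold, 1.59 to 3.40) and *Id1* at 96.3 and 212 (2.20-fold, 1.81 to 2.68). *Msx1* was at 49.5 and 11.8 CPM (4.21-fold lower, 2.58 to 7.13). *Id3* was at 162 and 135 CPM, so *Id1* and *Id2* parted from *Id3*. *Smad6*, *Bambi*, *Smad7* and *Msx2* were at 19.7, 43.4, 201 and 31.2 CPM in WT and 36.9, 65.2, 221 and 33.7 in dCD. *Id2* had a UMI in 24 of 89 WT cells (27.0%, 18.1% to 37.4%) and 67 of 118 dCD cells (56.8%, 47.3% to 65.9%). With the thresholds set on UMIs, 86 WT and 97 dCD cells passed, and 5 members were 2-fold higher, *Id1*, *Id2*, *Smad6*, *Bambi* and *Bmp4*. Of these *Bmp4* was then at 6.41 CPM in WT and 38.9 in dCD, *Bambi* at 47.7 and 123 and *Smad6* at 17.8 and 42.4, and *Bambi* and *Smad6* had not passed 2-fold with the first thresholds. The part of the extraembryonic ectoderm markers, which moved with these values, was not tested.

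Over all R1 cells 5 of 54 pathway genes were 2-fold higher and 5 lower in dCD, against 6.31% and 3.68% of all genes. *Nkx2-5*, a cardiac homeobox gene, was at 16.0 CPM in dCD against 1.12 in WT, and *Id4* at 42.7 against 12.4. *Bmp2* was at 7.12 against 43.3 CPM, *Bmp5* at 2.01 against 9.42, *Hand1* at 165 against 626 and *Prrx2* at 53.9 against 175. The named lower genes were thus 2 ligands and 2 mesenchymal factors. In *Prdm1orDppa3*+/*Klf4*- cells 6 of 32 were higher and 4 lower, against 12.6% and 3.49% of all genes. There *Tfap2a* was at 11.8 CPM in dCD against 1.36 in WT, *Gata3* at 31.0 against 10.2 and *Acvr2a* at 9.62 against 2.71, while *Hey1* was at 5.34 against 25.1, *Rgma* at 3.21 against 11.5 and *Bmp7* at 3.21 against 10.8.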

How the data were processed

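The authors counted UMIs of 10x Genomics 3′ libraries on GRCm38 (mm10) and deposited UMI counts per gene and cell. The 8 E14Tg2a libraries were counted with Cell Ranger and aggregated to equal mapped reads per cell. For R1 the authors kept only cells in which 2000 genes or more were expressed. The counter and annotation of the R1 table are not given in the sources used here. Both tables were used in full, with 0 columns left out. Identifiers of the E14Tg2a table were paired with symbols through GENCODE for GRCm38 (27722 of 27998). Cells were assigned to libraries by barcode suffix and to PGCLC by the authors' list.

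The members and all gene lists were chosen with earlier results of these data known. Counts were summed per group and scaled to CPM. Ratios were log2 of (CPM + 1), for genes with at least 10 UMIs over both groups, and a 2-fold ratio was the call. With 1 library a condition no test was run, and depth (8757170 to 22887974 UMIs a library) set exact Poisson, conditional and Clopper-Pearson 95% intervals, which cover counting error alone. Ratio intervals use CPM without the pseudocount. Shares were also computed after thinning cells to 15374 (E14Tg2a) or 6831 (R1) UMIs, leaving out shallower cells. A count of 0 was given its limit of 3 counts.

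Scrublet (scanpy 1.11.5) called 0.441% to 7.61% of cells doublets, which were kept. Clusters used 2000 variable genes without the members or the pathway list: k-means (scikit-learn 1.9.0; 3 for d2 EB, 4 for d4 EB) and Seurat 5.3.0 at resolution 0.3 for R1. Clusters were named from fixed marker lists, and some were left unnamed where the leading genes or a second list went against the name. This was not applied evenly. The clusters named PGC-like had naive pluripotency markers raised as well, and the cluster named naive pluripotency-like had PGC markers raised. *Prdm1orDppa3*+/*Klf4*- cells had *Dppa3* above 0.1 or *Prdm1* above 1, and *Klf4* below 1, as ln(1 + UMIs per 10000). Pathway genes named are the at most 6 with the largest ratios past 2-fold in a comparison. The like genes are the 3 with the highest Pearson r. The ratio script was checked on simulated counts. Python 3.11.15, scipy 1.17.1 and R 4.3.3 were used.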

Additional observations from a re-analysis of the deposited data

Results flagged for a closer look

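*Smad7* was flagged because its ratio of listed PGCLC over other EB cells changed direction between the days, with log2 ratios of −0.46 at d2 and 0.24 at d4. Its d4 interval includes a ratio of 1, each day had 1 library, and the difference between days was not tested.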

How the results depend on the processing

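Each comparison was recomputed with other pseudocounts, filters and fold limits, without doublets, with thinned or equally weighted cells, centred on the median gene and, where they apply, with other cell choices. Of 153 counts of members under these alternatives, 144 stayed within 1.5 times the value given and 9 did not, and of 675 recomputed single-gene ratios 0 turned a call to the other direction. The sign turned for 3 of 72 ratios, all within 2-fold: *Id2* in d4 EB over d2 EB, and *Smad7* and *Bambi* in S+L ESC over 2i ESC. Members lower in d4 EB than d2 EB numbered 4 when centred on the median gene, 1 as a mean over cells and 5 at a 1.5-fold limit. At 1.5-fold, 8 were lower in d2 listed PGCLC and 2 in R1 dCD EB. A pseudocount of 5 CPM left 2 higher in EpiSC, and thresholds on UMIs gave 5 higher in dCD *Prdm1orDppa3*+/*Klf4*- cells. The cluster with the highest PGC marker level was lowest for 3 members in d4 EB with Seurat at resolution 0.3, and for 1 in R1 at resolution 0.5. No paired analysis was possible because each condition had 1 library. The cause of these shifts was not tested.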
